A study of Caenorhabditis elegans with 15 samples.

Results

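The effect of the puf-8 allele ust222 on the transcriptome of young adult Caenorhabditis elegans was read within 2 classes of libraries that differ in sperm transcripts. The comparison uses 6 of the 15 RNA-seq libraries of the series: 3 libraries of puf-8(ust222), which the labels also give the code MUT-4N, and 3 of the wild-type strain N2. The other 9 libraries are 3 each of the puf-8 alleles ust221, ust223 and ok302. All 5 genotypes were labelled young adult and grown at 20 °C on Escherichia coli OP50 after synchronisation as first-stage larvae, and poly-A RNA of whole animals was sequenced. The labels do not say what ust222 changes in the gene, nor whether replicate libraries were made from independent cultures. The p-values below hence measure only how these libraries vary, which may be technical. In RNA from whole animals, fewer cells of a type and less RNA per cell cannot be told apart.

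PUF-8 belongs to the Pumilio family of RNA-binding proteins, which recognise short elements in the 3′ untranslated regions of mRNAs and mostly lower the translation or stability of those mRNAs. In the C. elegans germline it acts beside the related FBF proteins in stem cell proliferation, in the sperm or oocyte decision and in keeping meiotic cells from returning to mitosis. The study's title concerns the binding of PUF-8 to these regions and the lifespan of the animals.

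The classes were chosen by the sperm transcript levels of these same libraries, so the sperm values are given as a description and were not tested. The mean log2 CPM (counts scaled to a common library size, here across the 15 libraries) of 35 sperm genes outside the major sperm protein family was -1.92 and -2.16 in ust222 replicates 1 and 3 and -2.18 in N2 replicate 1, and these 3 libraries form the sperm-poor class. It was 1.38 in ust222 replicate 2 and 1.90 and 2.02 in N2 replicates 2 and 3, the sperm-rich class. Among the 15 libraries the nearest value outside the sperm-poor class was 0.90, in a ust223 library, so no library lies between the classes. Major sperm protein transcripts summed to 3.36 and 4.17 CPM in ust222 replicates 1 and 3 and to 4.50 CPM in N2 replicate 1, against 980.2 CPM in ust222 replicate 2 and 1275 and 1972 CPM in N2 replicates 2 and 3. Other genes moved with the class. Molting and larval cuticle genes averaged 5.07 and 5.09 log2 CPM in the sperm-poor ust222 libraries and 4.81 in the sperm-poor N2 library, against 2.12 in the sperm-rich ust222 library and 2.29 and 2.48 in the sperm-rich N2 libraries. The 4 adult cuticle collagens summed to 158 and 150.1 CPM in the sperm-poor ust222 libraries and 156 CPM in N2 replicate 1, against 2916 CPM in ust222 replicate 2 and 1932 and 2733 CPM in N2 replicates 2 and 3. The sperm-poor libraries held more larval cuticle and less adult cuticle and sperm RNA in both genotypes, although all were labelled young adult.

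**Figure D1:**
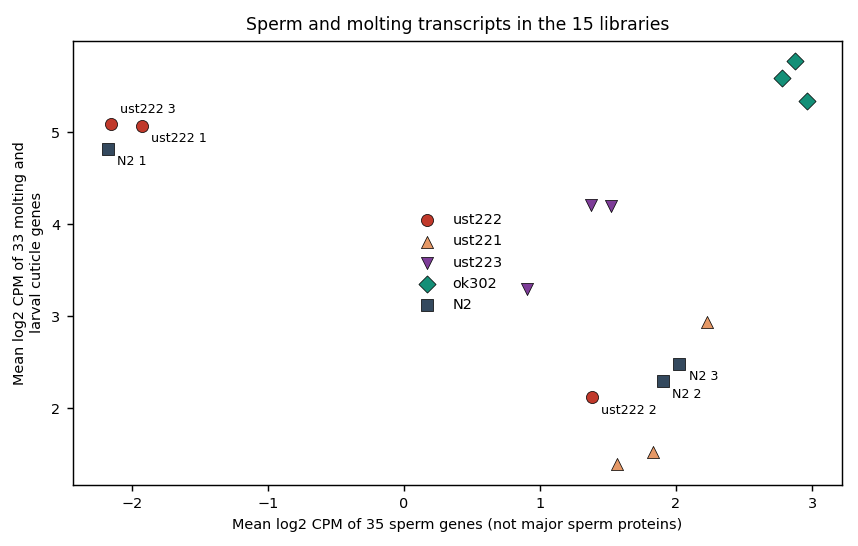
Mean log2 CPM of 35 sperm genes (x axis) against that of 33 molting and larval cuticle genes (y axis), 1 point per library for the 15 libraries. ust222 replicates 1 and 3 and N2 replicate 1 lie together at the left, near -2 on the x axis, and ust222 replicate 2 lies beside N2 replicates 2 and 3 at the right.

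The 6 libraries held between 20969800 and 27962751 counts. Correlations of log2 CPM between libraries ran from 0.95 to 0.99 within a class and from 0.76 to 0.80 between classes. No pair of libraries agreed within sampling noise, the closest being ust222 replicates 1 and 3, with a chi-square of 13.9 per degree of freedom. All 22 neuronal, 14 muscle, 12 intestinal, 12 hypodermal, 10 sheath and spermatheca and 30 oocyte markers were detected in all 6 libraries. Of 14 markers of male somatic tissue 10 were at 0 in some library and srj-54 in all 6, and the 10 that passed the count filter over the 15 libraries summed to between 4.77 and 8.92 CPM in ust222 and between 5.79 and 7.20 CPM in N2. With a term for library class the common biological coefficient of variation was 0.222, against 0.689 without it.

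The mutated gene itself, puf-8 (WBGene00004244, chromosome II, 7296110 to 7298247, minus strand, coordinates as in the deposited table), was transcribed in every library. It stood at 82.8 and 74.7 CPM in the sperm-poor ust222 libraries, against 89.8 CPM in the sperm-poor N2 library. In the sperm-rich class it stood at 105 CPM in ust222 and at 125 and 112 CPM in N2. Both classes had the lower values in ust222, without overlap, as did 15.7% of all genes tested, but the difference was small. The log2 fold change, ust222 over N2 with library class as a term, was -0.18 ± 0.14 (standard error, here and below), with a 95% interval of -0.49 to 0.13 and an adjusted p of 0.764. It was -0.19 ± 0.19 in the sperm-poor and -0.16 ± 0.19 in the sperm-rich class. For comparison, the same gene differed from N2 by -8.86 ± 0.32 in ok302 (adjusted p = 7.46e-09).

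Of the 15548 genes tested, 13 differed between ust222 and N2 at an adjusted p under 0.05 (edgeR quasi-likelihood test, class term, Benjamini-Hochberg adjustment over all genes tested). That is 0.0836% of the genes, 7 higher (0.045%) and 6 lower (0.0386%). At an unadjusted p under 0.05 there were 681 higher (4.38%) and 684 lower (4.4%), and the median over all genes was -0.02. The ust222 values lay beyond all N2 values of the same class, in both classes, for 12 of the 13 genes, in tag-293 by a single count in the sperm-rich class. The same held for 13.3% of all genes tested in the higher and 15.7% in the lower direction. The called genes were spread over the genome, with 4 on chromosome V, 3 on X, 2 each on III and IV and 1 each on I and II. With 3 residual degrees of freedom the calls depended on single libraries. Leaving out N2 replicate 3 left 0 calls (1355 genes at an unadjusted p under 0.05), leaving out ust222 replicate 3 left 1, and leaving out N2 replicate 1 gave 5, of which 1 was among the 13. Leaving out ust222 replicate 2 gave 170 calls, with 12 of the 13 among them. Leaving out ust222 replicate 1 gave 22, with 11 of the 13, and leaving out N2 replicate 2 gave 22, with all 13. Without ust222 replicate 2 only the sperm-poor class holds both genotypes, and without N2 replicate 1 only the sperm-rich class does. The fits without these libraries are hence comparisons within a single class. DESeq2 with the same class term called 270 genes, 165 higher and 105 lower, among them all 13. Scaling by library totals in place of TMM left 8 of the 13, 3 higher and 5 lower.

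T22B7.7 (chromosome X, 5651869 to 5653925, minus strand), a protein-coding gene with no domain named in the deposited table, showed the largest difference. Its read counts were 954 and 760 in the sperm-poor ust222 libraries and 8 in the sperm-poor N2 library, and 328 in the sperm-rich ust222 library and 26 and 22 in the sperm-rich N2 libraries. In CPM it stood at 40.1, 37.2 and 15.0 in ust222 replicates 1, 3 and 2, and at 0.352, 0.831 and 1.08 in N2 replicates 1, 2 and 3. Every ust222 library was at least an order of magnitude above every N2 library. The log2 fold change was 5.04 ± 0.48 (interval 3.99 to 6.09, adjusted p = 0.00659), or 32.8-fold. It was 6.76 ± 0.41 in the sperm-poor and 3.99 ± 0.28 in the sperm-rich class, and the difference between the classes did not pass the test (2.77 ± 0.52, adjusted p = 0.0849). T22B7.7 kept its call when any 1 library other than N2 replicate 3 was left out, and without that library its log2 fold change was 5.34 with an adjusted p of 0.0611. The other 12 called genes each kept their call in 2 or 3 of these 6 fits.

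The other 6 genes that rose had differences between 2.203-fold and 4.03-fold. H11L12.1 on chromosome X, without a named domain, stood at 39.6 and 40.5 CPM in sperm-poor ust222 and 6.20 CPM in sperm-poor N2, and at 34.5 CPM in sperm-rich ust222 and 13.6 and 12.96 CPM in sperm-rich N2. Its log2 fold change was 2.01 ± 0.29 (adjusted p = 0.0301). The gene was at nearly the same level in all 3 ust222 libraries, while N2 replicate 1 was below the other N2 libraries. W04A4.2 on chromosome I, also without a named domain, had 14.8 and 15.0 CPM in sperm-poor ust222 against 4.44 CPM in N2, and 38.96 CPM in sperm-rich ust222 against 14.9 and 12.96 CPM in N2 (1.61 ± 0.20, adjusted p = 0.0221). C32H11.4 on chromosome IV, which encodes a CUB-like domain as many secreted pathogen-response proteins of the nematode do, had 15.8 and 18.8 CPM in sperm-poor ust222 against 5.80 CPM in N2, and 56.1 CPM in sperm-rich ust222 against 16.97 and 19.4 CPM in N2 (1.60 ± 0.19, adjusted p = 0.0213). For W04A4.2 and C32H11.4 the level also differed between the classes, so that the sperm-poor ust222 libraries overlapped the sperm-rich N2 libraries and the groups separate only within a class.

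Enzymes were among the genes that rose. dgat-2 (chromosome V), a diacylglycerol acyltransferase of the kind that makes triglyceride for fat stores, stood at 20.8 and 23.96 CPM in sperm-poor ust222 and 8.52 CPM in N2, and at 18.7 CPM in sperm-rich ust222 and 6.77 and 6.90 CPM in N2. All 3 ust222 libraries were above all 3 N2 libraries, and the log2 fold change of 1.42 ± 0.20 (adjusted p = 0.0307) was nearly equal in the sperm-poor (1.39) and the sperm-rich class (1.45). pho-11 (chromosome II), a member of the histidine acid phosphatase family, had 204 and 219 CPM in sperm-poor ust222 against 107 CPM in N2, and 412 CPM in sperm-rich ust222 against 158 and 178 CPM in N2 (1.14 ± 0.15, adjusted p = 0.0266). T20F7.1 on chromosome X had 28.8 and 27.5 CPM in sperm-poor ust222 against 9.58 CPM in N2, and 36.8 CPM in sperm-rich ust222 against 14.3 and 17.1 CPM in N2 (1.39 ± 0.20, adjusted p = 0.0301). pho-11 shares its locus with a gene on the opposite strand whose counts were 1.09 times its own, and the strand setting of the counting is not known, so its reads and those of its partner cannot be told apart. For dgat-2 and T20F7.1 the overlapping gene held 0.0397 and 0.0235 times their counts.

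**Figure D2:**
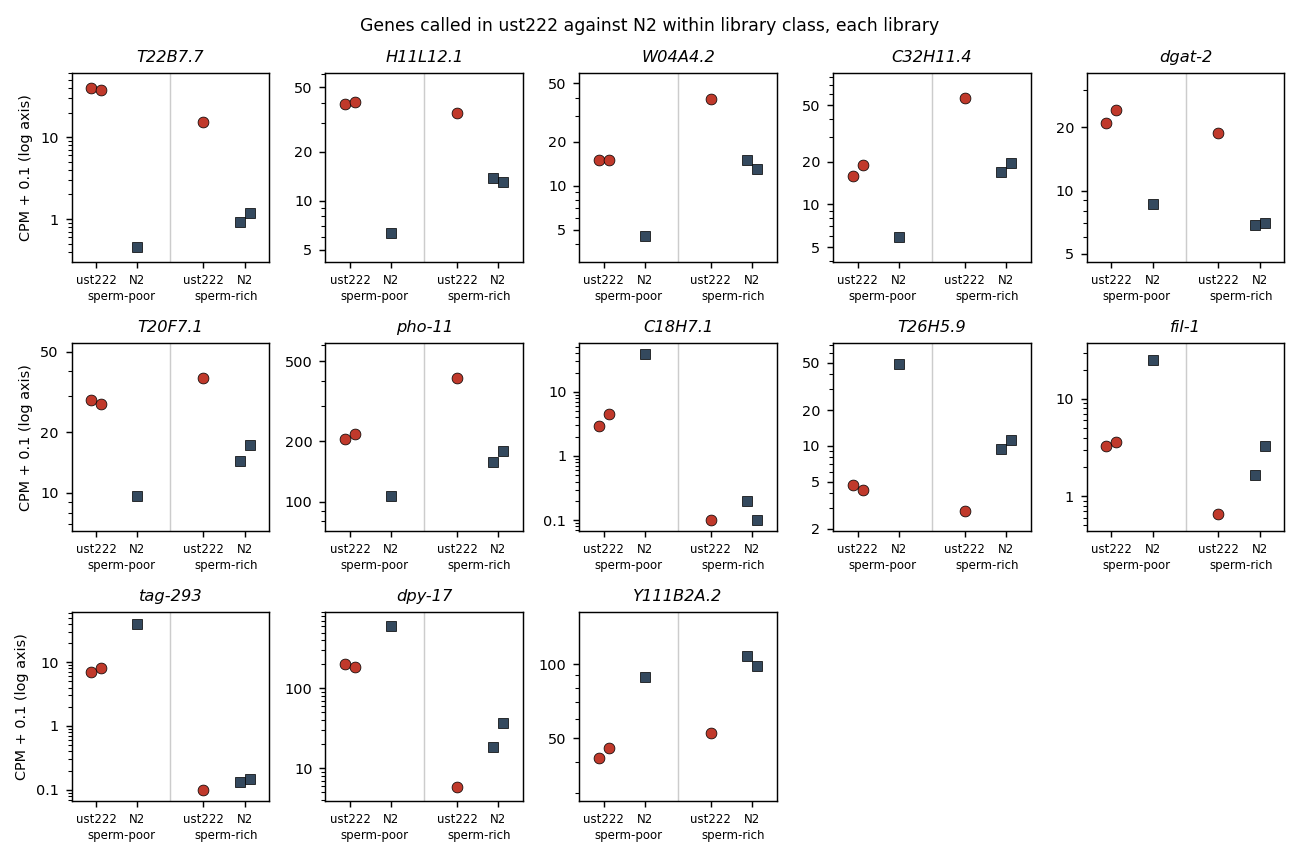
CPM of each of the 13 called genes in the 6 libraries, plotted with a small constant added on a log axis that differs between panels, with ust222 (circles) left of N2 (squares) in the sperm-poor (left) and sperm-rich (right) class. In each panel other than C18H7.1 the ust222 points lie all above or all below the N2 points of the same class, and T22B7.7 shows the widest gap.

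Of the 6 genes that fell, dpy-17 (chromosome III), a cuticle collagen needed for normal body shape, had the highest level in the sperm-poor libraries. It stood at 200.2 and 186 CPM in sperm-poor ust222 and 601 CPM in sperm-poor N2, and at 5.73 CPM in sperm-rich ust222 and 18.5 and 37.0 CPM in sperm-rich N2. It fell by 1.92 ± 0.26 on the log2 scale (adjusted p = 0.0284), with -1.64 in the sperm-poor and -2.27 in the sperm-rich class, although its level differed many times over between the classes. Y111B2A.2 (chromosome III), without a named domain, had 41.5 and 45.4 CPM in sperm-poor ust222 against 88.8 CPM in N2, and 52.4 CPM in sperm-rich ust222 against 108 and 98.5 CPM in N2. All 3 ust222 libraries were below all 3 N2 libraries, with -1.01 ± 0.15 (adjusted p = 0.0326) and nearly equal differences in the sperm-poor (-1.03) and the sperm-rich class (-0.98).

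The remaining 4 genes that fell were high in N2 replicate 1, the only sperm-poor N2 library. T26H5.9 (chromosome V) had 4.58 and 4.11 CPM in sperm-poor ust222 against 49.1 CPM in N2, and 2.75 CPM in sperm-rich ust222 against 9.23 and 11.1 CPM in N2 (-2.76 ± 0.33, adjusted p = 0.0213). fil-1 (chromosome V), a lipase known from its induction by fasting, had 3.15 and 3.47 CPM in sperm-poor ust222 against 25.1 CPM in N2, and 0.550 CPM in sperm-rich ust222 against 1.53 and 3.20 CPM in N2 (-2.63 ± 0.37, adjusted p = 0.0301). For both genes the larger part of the difference was in the sperm-poor class, at -3.49 for T26H5.9 and -2.92 for fil-1, and the sperm-rich libraries showed the same direction at -1.88 and -2.07. tag-293 (chromosome V), with a ShK toxin-like domain, stood at 6.85 and 8.02 CPM in sperm-poor ust222 against 40.2 CPM in N2, but had read counts of 0 in sperm-rich ust222 against 1 and 1 in N2. C18H7.1 (chromosome IV), with a von Willebrand factor type A domain, had counts of 67 and 90 in sperm-poor ust222 against 883 in N2, and 0 in sperm-rich ust222 against 3 and 0 in N2. Their log2 fold changes of -2.44 ± 0.31 and -3.43 ± 0.42 (adjusted p = 0.0221 for each) therefore rest on the sperm-poor class, that is on 1 N2 library, and no difference was detectable in the sperm-rich class at this depth.

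Genes just past the threshold, chosen after their values were seen, carried differences as large as those called. The lowest adjusted p among them was 0.0517, shared by clc-19, a claudin-like gene (2.12 ± 0.33), D1086.3 (2.01 ± 0.32), the collagen gene col-90 (1.15 ± 0.18), the UDP-glucuronosyltransferase gene ugt-63 (1.25 ± 0.20), F57A10.4 (-1.43 ± 0.23) and the collagen gene dpy-14 (-2.1995 ± 0.35). kreg-1, without a named domain, stood at 6.94 and 5.92 CPM in sperm-poor ust222 against 0.395 CPM in N2, and at 1.24 CPM in sperm-rich ust222 against 0.288 and 0.148 CPM in N2 (3.24 ± 0.55, adjusted p = 0.0578). fmo-2, a flavin-containing monooxygenase gene of lifespan studies, had 2.52 and 3.18 CPM in sperm-poor ust222 against 12.35 CPM in N2, and 0.137 CPM in sperm-rich ust222 against 2.75 and 2.66 CPM in N2 (-2.72 ± 0.45, adjusted p = 0.0575). Neither passed the test, while in each the ust222 libraries lay on 1 side of the N2 libraries in both classes. The same held for 13.3% of all genes tested in the higher and 15.7% in the lower direction. A gene that overlaps col-90 on the opposite strand held 3.74 times its counts, so the col-90 value is uncertain. C30G12.2, a short-chain dehydrogenase gene 4228 bp from puf-8, had 23.004 and 18.4 CPM in sperm-poor ust222 against 4.17 CPM in N2, and 30.6 CPM in sperm-rich ust222 against 13.4 and 14.6 CPM in N2 (1.68 ± 0.29, adjusted p = 0.0578). The other 4 genes tested within 10 kb of puf-8 were at 0.05 (cul-4), 0.04 (C30G12.6), -0.50 (brf-1) and -0.59 (C30G12.1), with adjusted p-values from 0.549 to 0.987.

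For the called genes, the values of the other puf-8 alleles stand beside those of ust222. The alleles ust221, ust223 and ok302 were all sperm-rich and were set against N2 replicates 2 and 3, which the ust222 comparison also uses, so the comparisons are not independent. T22B7.7 was at 95.8, 75.7 and 56.2 CPM in ust221, at 169.8, 170.2 and 173.7 CPM in ust223 and at 60.7, 71.3 and 73.6 CPM in ok302, with log2 fold changes of 6.24 ± 0.27, 7.44 ± 0.28 and 6.04 ± 0.27 (adjusted p at most 7.55e-08). The gene was above N2 in each of the 4 alleles. W04A4.2 was higher in ust221 (2.12 ± 0.18), ust223 (1.48 ± 0.18) and ok302 (1.51 ± 0.18), as were dgat-2 (2.52 ± 0.24, 2.34 ± 0.24 and 1.31 ± 0.23) and pho-11 (2.07 ± 0.25, 1.43 ± 0.24 and 1.16 ± 0.24), with all 9 adjusted p-values at most 0.00251. Y111B2A.2 was lower in all 3 (-1.21 ± 0.20, -0.83 ± 0.20 and -1.73 ± 0.20, adjusted p at most 0.0181). C30G12.2 beside puf-8 was also higher in ust221, ust223 and ok302 (2.66 ± 0.38, 2.64 ± 0.38 and 1.63 ± 0.36, adjusted p at most 0.00265).

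C32H11.4 stood at 2.80 ± 0.66 in ust221 and 2.85 ± 0.67 in ok302, both past the threshold, and at 1.78 ± 0.63 in ust223. T20F7.1 stood at 0.66 ± 0.24 in ust221, 0.78 ± 0.24 in ust223 and -0.03 ± 0.24 in ok302, none past the threshold, and H11L12.1 passed in ust221 (1.11 ± 0.25) and ust223 (1.64 ± 0.25) but had 0.29 ± 0.24 in ok302. T26H5.9 was higher in ok302 (2.08 ± 0.37, adjusted p = 0.000648), as was fil-1 (2.85 ± 0.83, adjusted p = 0.0124), against the lower values of both in ust222. dpy-17 fell in ust221 (-1.95 ± 0.32), rose in ust223 (1.34 ± 0.32) and had -0.58 ± 0.31 in ok302. Molting and larval cuticle genes averaged 3.29 to 4.21 log2 CPM in ust223 and 5.34 to 5.77 in ok302. They averaged 1.39 to 2.94 in ust221 and 2.29 and 2.48 in N2 replicates 2 and 3. The alleles and N2 were hence not matched for these transcripts, and their part in the differences was not tested. The difference of ust222 from each of these alleles was not tested within a class.

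**Figure D3:**
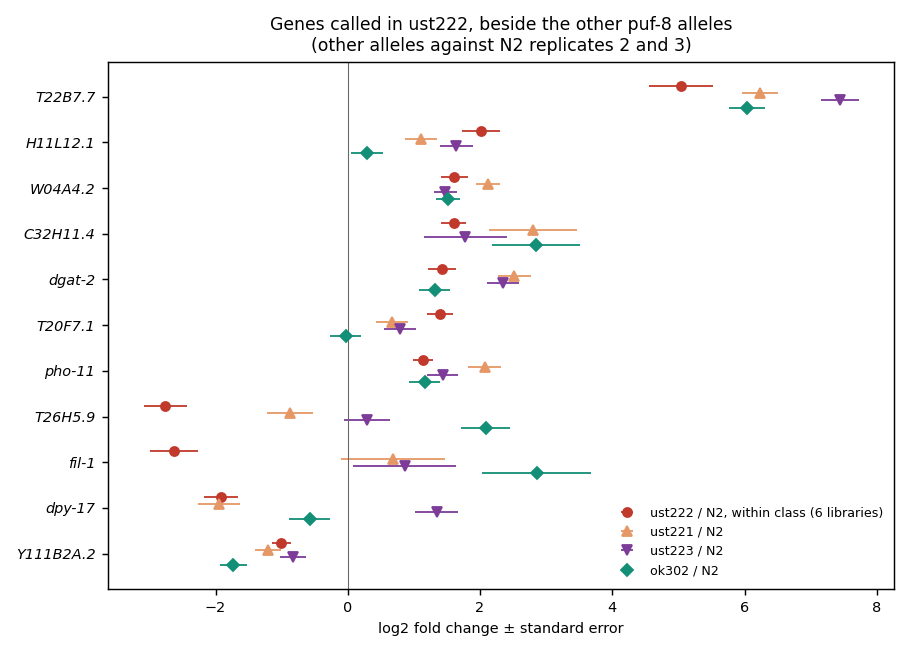
Log2 fold change against N2 with its standard error (x axis) for 11 of the 13 called genes, for ust222 within library class (circles) and for ust221, ust223 and ok302 against N2 replicates 2 and 3. tag-293 and C18H7.1 are left out because their sperm-rich N2 counts were 0 to 3. T22B7.7 lies between 5.04 and 7.44 in all 4 alleles, and T26H5.9 and fil-1 lie below 0 in ust222 and above 0 in ok302.

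Among 14 mRNAs listed as reported or candidate PUF-8 targets, none passed the test, and 1 had an unadjusted p under 0.05 (0 called by edgeR and 0 by DESeq2). Their differences nevertheless leaned to lower values in ust222: 13 of the 14 were below 0, from -0.45 to 0.10, with a median of -0.29 beside -0.02 for all genes tested. Among all 15548 genes tested, 8252 were below 0. The median was -0.22 in the sperm-poor and -0.26 in the sperm-rich class, and 12 of the 14 were below 0 in both classes, as were 27.5% of all genes tested. The median kept its sign in each of 19 alternative fits, between -0.51 and -0.18. Many of these mRNAs are abundant in the germline and oocytes, so they do not vary independently of each other.

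Of the RNA-binding regulators in this list, mex-3, a KH-domain repressor in oocytes and embryos, stood at 373 and 327 CPM in sperm-poor ust222 and 443 CPM in N2, and at 388 CPM in sperm-rich ust222 and 512 and 537 CPM in N2. Its log2 fold change was -0.39 ± 0.16 (adjusted p = 0.521). The zinc-finger gene pos-1, which patterns the early embryo, stood at 1004 and 945 CPM in sperm-poor ust222 against 1276 CPM in N2, and at 953 CPM in sperm-rich ust222 against 1222 and 1353 CPM in N2 (-0.41 ± 0.19, adjusted p = 0.569). For both, all 3 ust222 libraries were below all 3 N2 libraries. nos-2, a Nanos homologue of the primordial germ cells, had -0.34 ± 0.16, and pie-1, which keeps germline blastomeres from somatic fates, -0.29 ± 0.16. gld-1, a translational repressor of the germline, had -0.12 ± 0.18. Of the signalling genes, glp-1, the Notch receptor of germline stem cells, had -0.31 ± 0.16, mpk-1, the germline ERK kinase, -0.24 ± 0.14, and let-60, the Ras protein, -0.09 ± 0.16. Of the sex determination genes, fem-3 had -0.44 ± 0.27, tra-2 -0.20 ± 0.16 and fog-2, which permits hermaphrodite sperm, 0.10 ± 0.16. pal-1, a caudal-type homeobox gene, had -0.28 ± 0.17, and the mitochondrial fission factor genes mff-1 and mff-2 had -0.45 ± 0.22 and -0.03 ± 0.18. No adjusted p in this list was under 0.521. Genes that overlap mff-1, pie-1 and mff-2 held 1.40, 1.19 and 0.885 times their counts, so these values are uncertain.

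The list of oocyte and eggshell genes shares 4 members with the list above (mex-3, pos-1, pie-1 and nos-2), so the lists are not independent. None of the 30 tested was called by edgeR and 1 fell by DESeq2, with 0 higher and 4 lower at an unadjusted p under 0.05, a median of -0.24, and 26 below 0. Among all 15548 genes tested, 8252 were below 0 and DESeq2 called 105 lower. In both classes 21 of the 30 were below 0 (70%, against 27.5% of all genes). mex-6, a zinc-finger gene of embryonic polarity, had -0.47 ± 0.15 (adjusted p = 0.313), daz-1, an RNA-binding gene of oogenesis, -0.42 ± 0.15, and cpg-3, an eggshell proteoglycan gene, -0.49 ± 0.21. In libraries, the 30 genes summed to 13702 and 13024 CPM in sperm-poor ust222 and 15465 CPM in sperm-poor N2, and to 14223 CPM in sperm-rich ust222 and 16940 and 21560 CPM in sperm-rich N2. The ust222 sums were thus below the N2 sums in each class. Cell cycle and DNA replication genes had a median of -0.17 with 16 of 20 below 0, and replication histones, many of them near-identical copies, a median of -0.29 with 28 of 34 below 0. Early embryo genes had a median of -0.44 with 12 of 13 below 0, among them hch-1, the hatching protease gene, at -1.39 ± 0.37 (adjusted p = 0.214). That median was -0.51 in the sperm-poor and -0.85 in the sperm-rich class, and above 0 in the 3 fits that left out the class term. In germ granule and meiosis genes the median was -0.02, and in 18 germline Argonautes -0.11.

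On the metabolic side, UDP-glucuronosyltransferases, which conjugate lipophilic compounds for export, stood highest among the larger families. Of 58 tested none was called by edgeR, but 17 were higher and 1 lower at an unadjusted p under 0.05 (4.38% and 4.4% of all genes), and DESeq2 called 10 higher and 1 lower. Over all 15548 genes tested DESeq2 called 165 higher and 105 lower. The median was 0.45, with 0.67 in the sperm-poor and 0.52 in the sperm-rich class, and 32 of 58 were above 0 in both classes (55.2%, against 22.5% of all genes). ugt-63 stood at 8.66 and 7.38 CPM in sperm-poor ust222 against 3.43 CPM in N2, and at 57.4 CPM in sperm-rich ust222 against 26.2 and 21.3 CPM in N2. ugt-25 had 7.44 and 5.72 CPM in sperm-poor ust222 against 2.197 CPM in N2, and 11.8 CPM in sperm-rich ust222 against 4.67 and 3.94 CPM in N2 (1.51 ± 0.28, adjusted p = 0.0799). For these genes the ust222 libraries were above the N2 libraries of their class, as they were for ugt-44 (1.40 ± 0.28), ugt-41 (1.36 ± 0.29) and ugt-9 (1.35 ± 0.29), whose adjusted p-values were 0.0937, 0.118 and 0.126. The same held for 13.3% of all genes tested. The genes named were the family members of lowest p, chosen after their values were seen. Over the 19 alternative fits the median of the family ran from 0.09 to 0.67. Among other detoxification families, cytochromes P450 had a median of 0.10 with 11 of 52 higher and 2 lower at an unadjusted p under 0.05, and glutathione S-transferases had 0.20 with 4 of 43 higher and 2 lower. edgeR called none in either family, and DESeq2 called 5 P450 genes higher and 1 lower, and 1 transferase higher and 1 lower.

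Vitellogenins, the yolk proteins that the intestine makes for oocytes, had log2 fold changes above 0 in all 6 members, though none passed the test by edgeR. DESeq2 called 2 of them higher, vit-1 and vit-4, and 3 had an unadjusted p under 0.05 with edgeR. Among all 15548 genes tested, 7296 were above 0 and DESeq2 called 165 higher. vit-1 stood at 1496 and 1501 CPM in sperm-poor ust222 against 924 CPM in N2, and at 2794 CPM in sperm-rich ust222 against 1143 and 1512 CPM in N2 (0.89 ± 0.21, adjusted p = 0.167). vit-4 stood at 4526 and 5153 CPM in sperm-poor ust222 against 2874 CPM in N2, and at 3792 CPM in sperm-rich ust222 against 1239 and 2302 CPM in N2 (0.93 ± 0.28, adjusted p = 0.286). vit-2 had 8446 and 8268 CPM in sperm-poor ust222 against 10587 CPM in N2, and 5740 CPM in sperm-rich ust222 against 2234 and 3792 CPM in N2 (0.29 ± 0.33). vit-1 and vit-4 were therefore higher in both classes, while vit-2 was higher in the sperm-rich class and lower in the sperm-poor one. The median of the 6 was 0.20 in the sperm-poor and 1.06 in the sperm-rich class. vit-3, vit-4 and vit-5 are near-identical, so reads may have been split between them.

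Of 41 lipid metabolism genes, dgat-2 rose and none fell, with 9 higher and 2 lower at an unadjusted p under 0.05 and a median of 0.09. Of the desaturase genes that make polyunsaturated fatty acids, fat-1, fat-2 and fat-4 lay above 0 in both classes. They were named as list members of lowest p, a choice that favours such genes. fat-2 stood at 808 and 796 CPM in sperm-poor ust222 against 569 CPM in N2, and at 808 CPM in sperm-rich ust222 against 453 and 451 CPM in N2 (0.67 ± 0.17, adjusted p = 0.20). fat-1 had 0.66 ± 0.17 and fat-4 0.52 ± 0.16, with adjusted p-values of 0.202 and 0.282. Against them stood acs-2, an acyl-CoA synthetase gene of fat oxidation that fasting induces. It had 140.3 and 159.8 CPM in sperm-poor ust222 against 328 CPM in N2, and 48.5 CPM in sperm-rich ust222 against 53.4 and 70.04 CPM in N2 (-0.74 ± 0.19, adjusted p = 0.196). dgat-2 alone passed edgeR's test with the class term. DESeq2 with the same term called 5 members of the list higher and 1 lower, among them fat-1, fat-2 and fat-4 higher (adjusted p = 0.00398, 0.00171 and 0.0419) and acs-2 lower (adjusted p = 0.048). Over all 15548 genes tested DESeq2 called 165 higher and 105 lower.

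Cuticle genes did not move in 1 direction. Of 33 molting and larval cuticle genes, dpy-17 fell and none rose, while 8 were higher and 3 lower at an unadjusted p under 0.05. sqt-1, a cuticle collagen gene, stood at 146 and 148.1 CPM in sperm-poor ust222 against 74.8 CPM in N2, and at 5.59 CPM in sperm-rich ust222 against 2.27 and 3.40 CPM in N2 (0.99 ± 0.18, adjusted p = 0.0799). rol-6 (0.84 ± 0.20) and sqt-2 (0.72 ± 0.18) stood with it. sqt-3 stood at 661 and 578 CPM in sperm-poor ust222 against 1092 CPM in N2, and at 9.81 CPM in sperm-rich ust222 against 20.4 and 37.5 CPM in N2 (-1.16 ± 0.26, adjusted p = 0.141), on the side of dpy-17 and dpy-14. Collagens of the nematode are transcribed in waves within each molt. The 6 collagens named here were each on the same side of N2 in both classes. They were chosen by a low p in the fit with the class term, which favours such genes. Of 128 cuticle collagens 36 were above 0 in both classes (28.1%, against 22.5% of all genes). Below 0 in both were 20 (15.6%, against 27.5% of all genes). Across the 128 the median was 0.07, with 0 called by edgeR, 8 higher and 2 lower by DESeq2, and 22 higher and 7 lower at an unadjusted p under 0.05. Over all 15548 genes tested DESeq2 called 165 higher and 105 lower, and 4.38% were higher and 4.4% lower at the unadjusted level. The sum over the 33 molting genes, which moves with the class, was 3204 and 3092 CPM in sperm-poor ust222 and 3395 CPM in N2, and 425 CPM in sperm-rich ust222 and 437 and 517 CPM in N2. The part of this shift in these values was not tested.

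Markers of somatic tissues differed in opposite directions in the classes. Medians were -0.30 in the sperm-poor and 0.39 in the sperm-rich class for 22 neuronal markers, -0.41 and 0.48 for 14 muscle markers and -0.30 and 0.09 for 12 intestinal markers. With the class term none was called by edgeR, while in the sperm-poor class alone 1 intestinal marker fell (ifb-2, -0.97 ± 0.19, adjusted p = 0.0432). No neuronal or muscle marker had an unadjusted p under 0.05, while 2 intestinal markers were higher and 1 lower at that level. DESeq2 called 1 intestinal marker higher, beside 165 of all 15548 genes tested. Muscle markers summed to 7137 and 7865 CPM in sperm-poor ust222 against 11354 CPM in N2, and to 10431 CPM in sperm-rich ust222 against 6987 and 8972 CPM in N2. Neuronal markers summed to 1126 and 1170 CPM in sperm-poor ust222 against 1629 CPM in N2, and to 719 CPM in sperm-rich ust222 against 641 and 763 CPM in N2. The sums for muscle did not overlap between the genotypes within either class, and they lay on opposite sides. Averaged over the classes the medians were -0.07 for neurons, -0.04 for muscle, -0.14 for intestine, -0.06 for hypodermis and -0.02 for sheath and spermatheca. Neuropeptide and insulin-like genes split in the same way, with -0.35 in the sperm-poor and 0.41 in the sperm-rich class over 125 genes. The median of 30 cilium genes, by contrast, was below 0 in both classes, at -0.20 and -0.45. It was -0.29 with the class term and above 0 in the 3 fits without it. Single cilium genes were below 0 in both classes for 11 of the 30 (36.7%, against 27.5% of all genes). dyf-3, a gene of ciliary assembly, had 4.12 and 4.84 CPM in sperm-poor ust222 against 10.9 CPM in N2, and 3.53 CPM in sperm-rich ust222 against 9.30 and 7.84 CPM in N2 (-1.28 ± 0.26, adjusted p = 0.105).

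**Figure D4:**
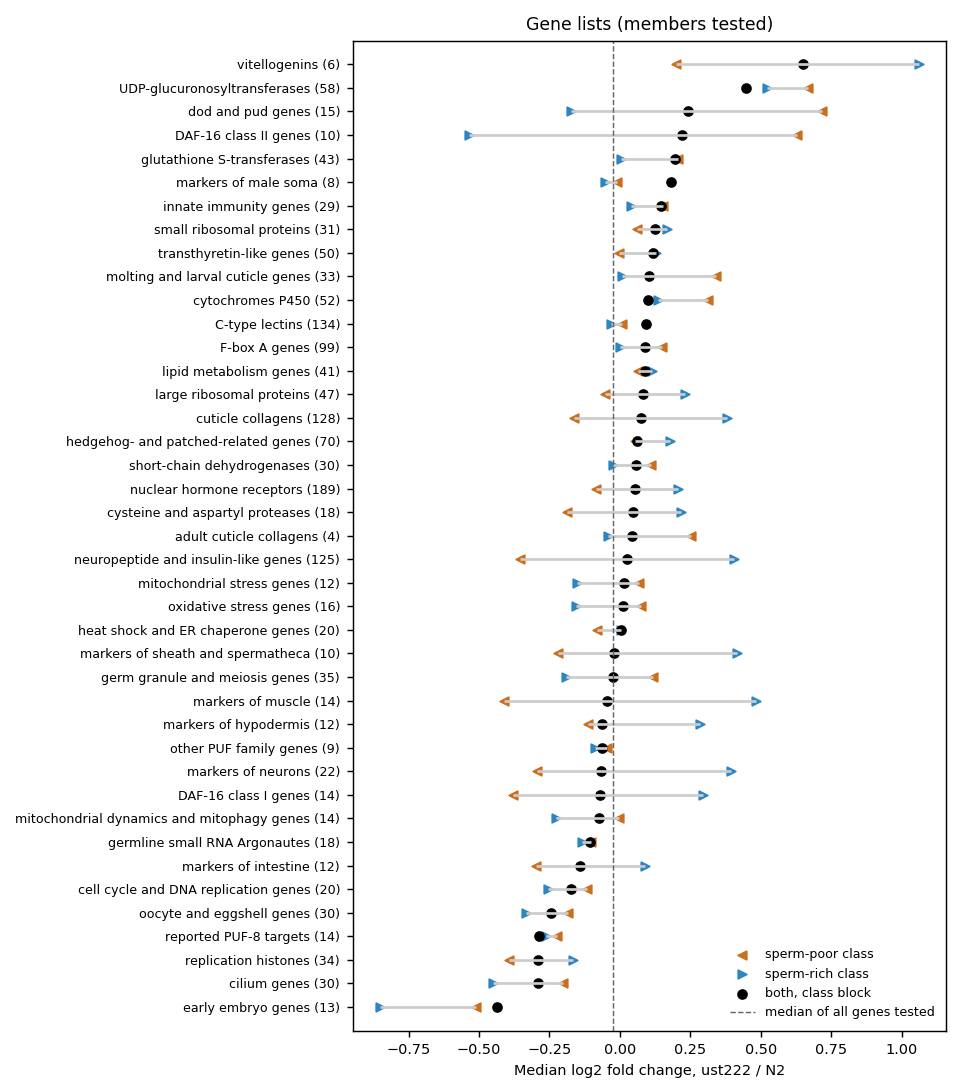
Median log2 fold change of ust222 over N2 (x axis) for the gene lists and families tested, with the number of members tested in brackets. Circles give the median with the class term, triangles that in the sperm-poor and the sperm-rich class, and the dashed line the median of all genes tested, -0.02. Vitellogenins and UDP-glucuronosyltransferases lie highest, early embryo genes lowest, and muscle and neuronal markers have their triangles on opposite sides of 0.

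Among the remaining lists edgeR called no member. Innate immunity genes had a median of 0.15 over 29 genes, C-type lectins 0.09 over 134, nuclear hormone receptors 0.06 over 189, transthyretin-like genes 0.12 over 50 and heat shock and ER chaperone genes 0.01 over 20. DAF-16 class I genes, which the FOXO factor DAF-16 raises, had -0.07 over 14 genes, and class II genes, which it lowers, 0.22 over 10. These medians had opposite signs in the sperm-poor and sperm-rich classes, -0.38 and 0.30 for class I genes and 0.63 and -0.54 for class II genes. Mitochondrial stress genes had 0.01 over 12 genes, mitochondrial dynamics and mitophagy genes -0.07 over 14, oxidative stress genes 0.01 over 16, and the other PUF family genes -0.06 over 9. The most members past an unadjusted p of 0.05 were in the C-type lectins, a large list, with 10 higher and 12 lower of 134. Of all genes tested 4.38% were higher and 4.4% lower at that level. DESeq2 called 5 of the lectins lower and 2 of the 10 DAF-16 class II genes higher. Over all 15548 genes it called 165 higher and 105 lower. Small ribosomal protein genes were above 0 for 29 of 31, with a median of 0.13, and large ones for 38 of 47, with a median of 0.08. Among all 15548 genes tested, 7296 were above 0.

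Within the sperm-poor class alone, 2 ust222 libraries against 1 N2 library, 86 genes were higher and 78 lower past the threshold (1.05% together). Here every difference includes whatever was particular to N2 replicate 1, the only sperm-poor N2 library, and the fit assumes that it varies as the other libraries do. Of 41 lipid metabolism genes 6 rose and 2 fell in this class. Those that rose were dgat-2, the elongase genes elo-2 (1.23 ± 0.22), elo-5 (1.70 ± 0.25) and elo-6 (1.43 ± 0.26), the lipid droplet dehydrogenase gene dhs-3 (1.13 ± 0.21) and the desaturase gene fat-5 (2.08 ± 0.29), the last with 48.03 and 41.2 CPM in ust222 against 10.6 CPM in N2. Those that fell were acs-2 (-1.13 ± 0.21) and the lysosomal lipase gene lipl-3, with 3.15 and 2.98 CPM in ust222 against 15.2 CPM in N2 (-2.31 ± 0.36). Of 58 UDP-glucuronosyltransferases 6 rose and none fell. Of 29 innate immunity genes 2 rose and 2 fell, and of 18 cysteine and aspartyl proteases none rose and 2 fell, the cathepsin B-type genes cpr-1 (-1.86 ± 0.26) and cpr-4 (-1.74 ± 0.23). Single genes named after their values were seen were fmo-2 (-2.12 ± 0.38), hlh-30, the TFEB homologue, with 109 and 103 CPM in ust222 against 206 CPM in N2 (-0.96 ± 0.19), and the long non-coding RNA tts-1, with 526 and 403 CPM in ust222 against 1666 CPM in N2 (-1.84 ± 0.25).

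In the sperm-rich class, 1 ust222 library against 2 N2 libraries, lipl-3 stood at 1.47 ± 0.47, hlh-30 at 0.24 ± 0.20, acs-2 at -0.35 ± 0.22, cpr-4 at 0.25 ± 0.24, tts-1 at 0.40 ± 0.26, elo-2 at 0.16 ± 0.21, elo-5 at 0.05 ± 0.23, elo-6 at 0.27 ± 0.24 fat-5 at -0.27 ± 0.26 and dhs-3 at 0.03 ± 0.19, none past the threshold. cpr-1 (-0.83 ± 0.29) and fmo-2 (-4.25 ± 0.66, adjusted p = 0.0594) were on the same side as in the sperm-poor class without passing. A gene past the threshold in 1 class alone is not shown to differ between the classes: the adjusted p of that difference was 0.305 for fmo-2 and 0.311 for acs-2. Only 14 genes were called in the sperm-rich class alone (0.09%), 6 higher and 8 lower. Beside T22B7.7 and C32H11.4, those higher included rnh-1.3, an RNase H gene, with 41.7 CPM in ust222 against 5.21 and 6.51 CPM in N2 (2.84 ± 0.29), scrm-4, a scramblase gene (2.19 ± 0.26), and asm-3, an acid sphingomyelinase gene (2.13 ± 0.30). Those lower included lpr-5, a lipocalin-related gene of the apical matrix, with 0.183 CPM in ust222 against 1.95 and 2.51 CPM in N2 (-3.55 ± 0.50), and the patched-related gene ptr-25 (-2.80 ± 0.40). These rest on ust222 replicate 2, the only sperm-rich ust222 library. A gene that overlaps scrm-4 on the opposite strand held 4.63 times its counts, so the scrm-4 value is uncertain.

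4 genes were called in each class on its own, where the classes share no library but do share the estimate of the spread, and all 4 had the same sign in both: T22B7.7, C32H11.4, dpy-14 and the collagen gene col-165. dpy-14 had 148.2 and 128 CPM in sperm-poor ust222 against 388 CPM in N2 (-1.49 ± 0.24), and 1.56 CPM in sperm-rich ust222 against 13.2 and 20.3 CPM in N2 (-3.41 ± 0.36). col-165 had 59.1 and 62.9 CPM in sperm-poor ust222 against 211 CPM in N2 (-1.79 ± 0.27), and was at 0 in sperm-rich ust222 against 1.41 and 2.81 CPM in N2. The direction of the genotype difference was the same in both classes for 50% of all genes tested, for 66.5% (109 genes) of those called in the sperm-poor class and for 85.7% (12 of 14) of those called in the sperm-rich class. Across the 15548 genes, which are not independent replicates, the log2 fold changes of the classes had a Pearson correlation of 0.07 and a Spearman correlation of 0.05.

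**Figure D5:**
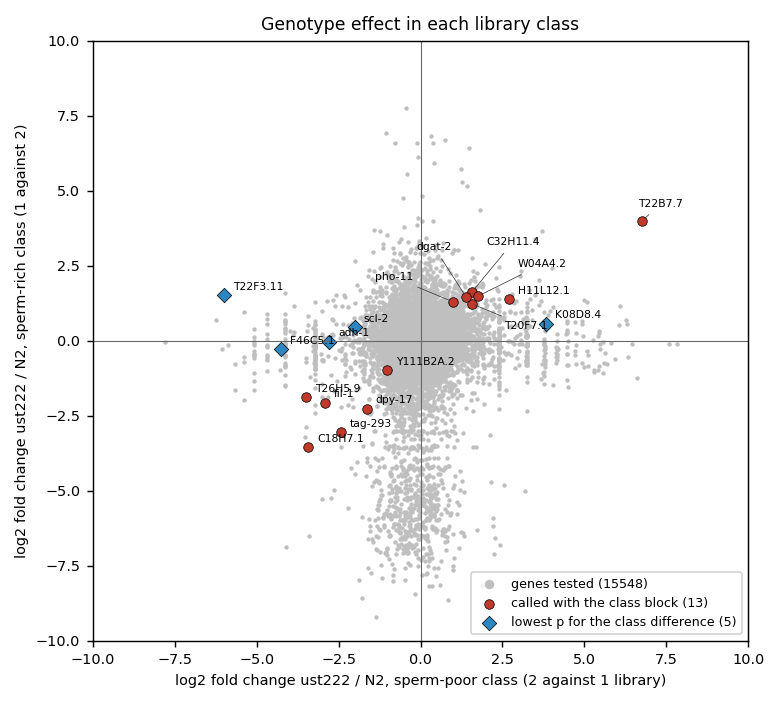
Log2 fold change of ust222 over N2 in the sperm-poor class (x axis) against that in the sperm-rich class (y axis) for the 15548 genes tested (grey), the 13 genes called with the class term (circles) and the 5 genes with the lowest p for the difference between classes (diamonds). The called genes lie in the upper right and lower left of the plot, with T22B7.7 farthest out at 6.76 and 3.99, and T22F3.11 lies at -6.0001 in the sperm-poor class and 1.52 in the sperm-rich class. The sperm-rich values of tag-293 and C18H7.1 rest on 0 to 3 counts per library.

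A test of the difference between the classes called 8 genes (0.0515%). Without a class term the same 6 libraries gave 0 calls by edgeR, with 317 genes at an unadjusted p under 0.05, against 13 calls and 1365 genes with it. Placing all 15 libraries in 1 model with the class term gave 33 calls (0.192% of 17217 genes), 17 higher and 16 lower, 9 of them among the 13.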

How the data were processed

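Poly-A RNA of whole young adult animals was sequenced from 3 libraries in each of 5 genotypes. The authors' deposited values are raw counts of reads for each gene, in 1 table, and the submitters' processing notes name HISAT2 2.0.5. The sources used here do not give the counting program, its strand setting or the genome build. CPM values were computed from the deposited counts with TMM scaling. The 3 ust222 and 3 N2 libraries were fitted with edgeR 4.0.16 (R 4.3.3, quasi-likelihood test) with terms for genotype and library class, after filterByExpr, which kept 15548 of 47111 genes. Effects in each class and their difference came from a fit with the interaction, with 2 residual degrees of freedom, and p-values were Benjamini-Hochberg adjusted. The other alleles were fitted with N2 replicates 2 and 3. Symbols were matched for 44017 of 46904 WormBase identifiers. DESeq2 1.42.0 and limma 3.58.1 were alternatives. The procedure was tested on simulated data.

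Named genes were puf-8, the called genes with at least 50 mean counts and the listed PUF-8 targets. Up to 4 called members of each list and up to 5 genes differing between classes were added. Other genes were chosen after their values were seen, also where the text does not say so. They include the members of lowest p named for vitellogenins, UDP-glucuronosyltransferases, lipid metabolism genes and oocyte and eggshell genes. Those named for cilium, early embryo and molting and larval cuticle genes were chosen in the same way. The libraries compared and the gene lists were chosen with earlier results of these data known. The search for PUF motifs in 3′ untranslated regions and the genes of the mitochondrial genome list were not analysed here.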

Additional observations from a re-analysis of the deposited data

Results flagged for a closer look

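The difference between ust222 and N2 itself differed between the library classes, by the interaction test of edgeR with Benjamini-Hochberg adjustment, for 8 genes, of which the 5 with the lowest p are given as the sperm-poor minus the sperm-rich log2 fold change. For T22F3.11, a transporter of the major facilitator family, it was -7.52 ± 0.52 (adjusted p = 0.000709), with 2.65 and 3.86 CPM in sperm-poor ust222 against 208 CPM in N2, and 1.65 CPM in sperm-rich ust222 against 0.703 and 0.394 CPM in N2. For the alcohol dehydrogenase gene adh-1 it was -2.75 ± 0.28 (adjusted p = 0.0122), with 129 and 146 CPM in sperm-poor ust222 against 954 CPM in N2, and 38.5 CPM in sperm-rich ust222 against 39.1 and 40.2 CPM in N2. For scl-2 it was -2.46 ± 0.29 (adjusted p = 0.0339), with 36.9 and 35.6 CPM in sperm-poor ust222 against 146 CPM in N2.

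F46C5.1 differed by -3.98 ± 0.49 (adjusted p = 0.0405), with 1.77 and 2.64 CPM in sperm-poor ust222 against 42.4 CPM in N2, and it overlaps a gene with 0.398 times its counts. K08D8.4 differed by 3.26 ± 0.42 (adjusted p = 0.042), with 29.8 and 30.1 CPM in sperm-poor ust222 against 2.11 CPM in N2. In all 5 genes N2 replicate 1, the only sperm-poor N2 library, stood apart from the other 5 libraries. A genotype difference particular to that class and a property of that 1 library cannot be told apart.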

How the results depend on the processing

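The 13 calls were the same 13 genes with RLE scaling, with genes kept at over 1 CPM in 3 libraries, or with a log2 fold change of at least 1 required. Scaling by library totals alone gave 8, 3 higher and 5 lower. More were called without the low-count filter (331), by DESeq2 (270), by limma-voom (28, an alternative chosen after seeing the data), with 15 libraries and the class term (33) and in the sperm-poor class alone (86 higher and 78 lower). Fewer were called without the class term, 0 in the 6 libraries and 1 in all 15. Leaving out 1 library gave between 0 and 170. The class difference, 8 genes, became 2 with RLE scaling and 0 with 15 libraries (1957 at an unadjusted p under 0.05), and between 75 and 3193 when 1 library was left out, a set of fits added after seeing the data. Of the 13 genes, 12 kept their direction in each of 19 alternatives; tag-293 turned to 0.59 with a replicate block in place of the class term.

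Replicate numbers were shared by ust222 and N2, but the numbers were not taken to pair them. Deviations from the genotype means correlated at 0.82 and 0.77 for replicates 1 and 2, where both libraries are of 1 class, and at -0.70 for replicate 3, where they are not. After removal of class and genotype the correlations were -0.53, -0.34 and 0.32. That fit leaves 3 residual degrees of freedom for 6 libraries and ties their residuals together. These values hence cannot show whether the replicate numbers pair. A replicate block in place of the class term gave 0 calls (325 at an unadjusted p under 0.05), and a replicate block with the class term gave 6, of which 4 were among the 13. With 3 libraries per genotype, and 1 sperm-poor N2 and 1 sperm-rich ust222 library, counts move widely with the setting, and the causes were not tested.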

Other observations

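Further genes called in the sperm-poor class alone were chosen after their values were seen. acox-1.2, an acyl-CoA oxidase gene of peroxisomal fatty acid shortening, stood at 28.1 and 27.2 CPM in sperm-poor ust222 against 2.90 CPM in N2 (3.25 ± 0.29, adjusted p = 0.000827), and at 28.3 CPM in sperm-rich ust222 against 11.2 and 12.4 CPM in N2 (1.26 ± 0.23, adjusted p = 0.0726). pud-3, of the DAF-16 class II list, stood at 239 and 240.5 CPM in sperm-poor ust222 against 40.95 CPM in N2 (2.55 ± 0.23, adjusted p = 0.000827), and at 130 CPM in sperm-rich ust222 against 72.7 and 88.3 CPM in N2 (0.69 ± 0.19, adjusted p = 0.172). Both had the higher values in ust222 in each class, and passed the test in the sperm-poor one. The class II list had 3 genes called higher in the sperm-poor class. Of the others, pud-4 stood at 2.74 ± 0.26 there and at 0.98 ± 0.22 in the sperm-rich class. dod-19 stood at 1.41 ± 0.21 and, on the other side of 0, at -0.57 ± 0.20. The difference between the classes is not given for these genes.

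The innate immunity genes called in the sperm-poor class went both ways. lys-2, a lysozyme gene, had 1.17 ± 0.23 (adjusted p = 0.0421) and sysm-1, a ShK-domain gene, 1.85 ± 0.25 (adjusted p = 0.00978), both higher in ust222. The lysozyme gene lys-4 had 129 and 134 CPM in ust222 against 305 CPM in N2 (-1.21 ± 0.18, adjusted p = 0.0136), and the saposin-like gene spp-2 had 45.6 and 50.03 CPM in ust222 against 128 CPM in N2 (-1.42 ± 0.20, adjusted p = 0.0103). In the sperm-rich class lys-4, spp-2 and sysm-1 stood at -0.20 ± 0.19, -0.40 ± 0.21 and 0.26 ± 0.23 without passing. lys-2 lay on the other side of 0 there, at -0.48 ± 0.22, also without passing. The sperm-poor values rest on N2 replicate 1.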
